A study of Mus musculus with 24 samples.

Results

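CAST/EiJ, an inbred strain founded from wild mice of the subspecies Mus musculus castaneus, was compared in the retina with 5 classical laboratory strains: 129S1/Svlmj, C57BL/6J, NOD/ShiLtJ, A/J and NZO/HlLtJ. The strain given in the sample labels chose the members, 3 CAST/EiJ libraries of 24 in the series, and set them against the 15 libraries of the classical strains. Each strain had 3 libraries of retinal total RNA depleted of ribosomal RNA, from wild-type mice at postnatal day 28. The labels name no treatment and no sex, and each strain is a single inbred line. The remaining 6 libraries came from PWK/PhJ and WSB/EiJ, the other 2 wild-derived strains, and are used only to place the genes named below. The study set out to relate retinal gene expression in these 8 strains to refraction and contrast vision, and only the RNA values are used here.

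The CAST/EiJ libraries held 72,970,000, 77,880,000 and 76,600,000 reads in replicates 1, 2 and 3, and the classical libraries 59,420,000 to 78,150,000 (median 68,310,000). Values are in counts scaled to a fixed total of reads (cpm), so a gene with 3 reads, used here as the floor, had 0.0385 to 0.0411 cpm in CAST/EiJ and 0.0384 to 0.0505 cpm in the classical libraries. That floor covers counting error only. Across the 15852 genes tested, Pearson's r of log2(cpm + 1) between libraries was 0.996 to 0.9972 within CAST/EiJ, 0.9887 to 0.9979 within a classical strain and 0.9732 to 0.9857 between classical strains. Between CAST/EiJ and classical libraries it was 0.9511 to 0.9616, below each pair of classical libraries. These r are taken across genes, which are not independent replicates.

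Xist, the RNA that coats the inactive X chromosome of females, and the Y-linked helicase gene Ddx3y showed that the groups mixed sexes. Xist was 0.123, 9.71 and 1046 cpm in CAST/EiJ replicates 1, 2 and 3, and Ddx3y was 35.0, 34.4 and 0 cpm. Among the classical libraries, Xist was high in replicate 3 of 129S1/Svlmj (962 cpm) and replicate 3 of C57BL/6J (906 cpm). Replicate 2 of CAST/EiJ carried Ddx3y at the level of replicate 1 and a low level of Xist as well. Nnt, the mitochondrial transhydrogenase gene that C57BL/6J is known to carry with a deletion, averaged 4.82 cpm in C57BL/6J, inside the range of the other classical strain means (3.41 to 7.45 cpm), and 4.09 cpm in CAST/EiJ. These values are for the whole gene and do not show the deleted part, so they cannot check the strain label.

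The mouse retina is built mostly of rods, with cones, bipolar, horizontal, amacrine and ganglion cells forming its circuits and Müller glia spanning its depth. Classical laboratory strains descend mainly from Mus musculus domesticus, while CAST/EiJ represents another subspecies that separated from it long before mice were kept in laboratories. The reference assembly to which reads of every strain were aligned is that of C57BL/6J.

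At a Storey q-value under 0.01 in limma, 8131 of 15852 genes (51.3%, or 36.3% without a filter on low values) differed between CAST/EiJ and the classical strains. CAST/EiJ was higher at 3355 of them (21.2% of the genes tested) and lower at 4776 (30.1%), and under median-ratio scaling 50.9% of the calls were rises, against 41.3% with the deposited values. A small q is therefore common here, and a stricter rule was used to name genes. A gene is said to stand apart when q is under 0.01, the log2 difference is at least 1 in size and the 3 CAST/EiJ libraries do not overlap the 15 classical ones. Values below are given for the CAST/EiJ libraries in order of replicate and for the classical libraries from lowest to highest, and the groups do not overlap unless this is said. Where only group means are given, the groups may overlap. Most counts for gene lists are followed by the percentage called, to be read beside 51.3% of all genes, and medians by their lowest and highest value over all alternatives run, with those chosen after seeing the data among them. Of the genes tested, 438 (2.76%) stood apart, 190 of them higher in CAST/EiJ (1.20%) and 248 lower (1.56%). The median log2 difference over all genes was -0.03. With the 6 strain means as units, in place of libraries, 613 genes passed the same q limit and 264 of the 438 genes still stood apart.

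**Figure D1:**
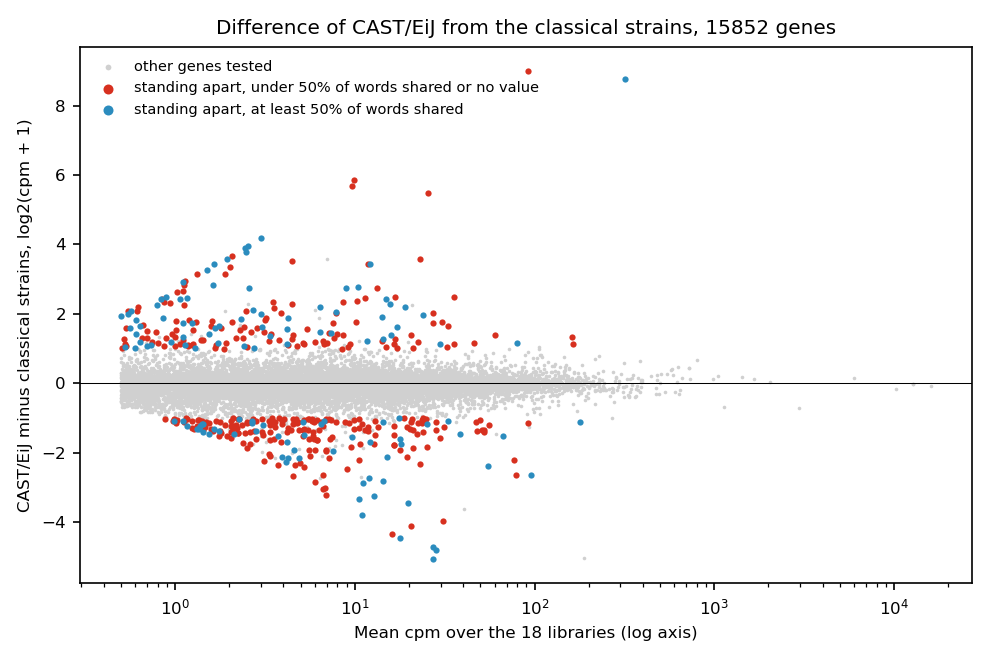
Difference between CAST/EiJ and the classical strains in log2(cpm + 1) for each of the 15852 genes tested, against mean cpm on a log axis, with the 438 genes standing apart in colour by the share of their 31-base words found in another gene. Among genes standing apart for which this share could be computed, 123 of 420 have at least 50% of their words in another gene.

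Some of the largest rises among protein-coding genes were at loci almost silent in every classical library. Tas1r1, a subunit of the umami taste receptor, was listed at 29.0, 68.7 and 74.2 cpm in the CAST/EiJ libraries and at 0.0157 to 0.0809 (median 0.0479) cpm in the classical ones, which is near the floor of 3 reads. The log2 difference was 5.69 ± 0.16 (SE, q = 3.00e-16), and replicate 1 of CAST/EiJ was well below the other 2. Tas1r1 lies at chr4:152027914-152038568 and averaged 0.0497 cpm in PWK/PhJ and 0.0456 cpm in WSB/EiJ, so CAST/EiJ was high alone among the 8 strains. Atp4b, the beta subunit of the gastric proton pump, followed the same pattern at 11.9, 10.8 and 14.1 cpm in CAST/EiJ and 0.0131 to 0.0524 (median 0.0316) cpm in the classical libraries, a difference of 3.68 ± 0.05 (q = 1.01e-20). It lies at chr8:13386205-13396825 next to the photoreceptor kinase gene Grk1 at chr8:13405081-13421951, which also rose (below). Kcnmb3, an auxiliary subunit of large-conductance calcium-activated potassium channels, had 6.30, 8.53 and 9.03 cpm in CAST/EiJ and a median of 0 in the classical libraries, none of which passed 0.0158 cpm (3.15 ± 0.06, q = 1.46e-18). Efhb, which encodes a calcium-binding protein, was at 6.01, 6.37 and 7.08 cpm in CAST/EiJ and between 0 and 0.102 cpm in the classical libraries (2.84 ± 0.04, q = 1.90e-20). It was intermediate in PWK/PhJ (0.889 cpm) and WSB/EiJ (0.879 cpm). Of these 4 genes, none shared over 4.22% of its 31-base words with another gene. All 4 reached the mean of 0.5 cpm needed for testing only through the CAST/EiJ libraries. Their q therefore describes the gap and lends it no independent support. The same holds for genes named elsewhere whose classical libraries averaged under 0.5 cpm, or, through the classical libraries, whose CAST/EiJ libraries did.

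Gk5, Slc6a2 and Bst1 rose from low levels that were above the floor. Gk5, a member of the glycerol kinase family, gave 139, 142 and 142 cpm in the 3 CAST/EiJ libraries against 1.40 to 6.28 (median 1.70) cpm in the classical ones, where NZO/HlLtJ was the highest strain with a mean of 5.97 cpm. The difference was 5.49 ± 0.06 (q = 1.80e-22), or 57.02-fold, and PWK/PhJ (1.94 cpm) and WSB/EiJ (1.58 cpm) sat with the classical strains. Slc6a2, the noradrenaline transporter, was at 10.6, 10.5 and 9.28 cpm in CAST/EiJ and 0.114 to 0.411 (median 0.273) cpm in the classical libraries, a 39.4-fold rise (3.15 ± 0.06, q = 2.70e-19) that neither PWK/PhJ (0.174 cpm) nor WSB/EiJ (0.503 cpm) matched. Bst1, a membrane-anchored enzyme that makes cyclic ADP-ribose, reached 22.3, 20.8 and 22.4 cpm in CAST/EiJ against 0.718 to 1.39 (median 0.958) cpm, a 21.7-fold rise (3.52 ± 0.06, q = 3.25e-19). For this gene PWK/PhJ was in between at 6.20 cpm (q = 2.03e-13 against CAST/EiJ), and WSB/EiJ was near the classical strains at 1.22 cpm.

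**Figure D2:**
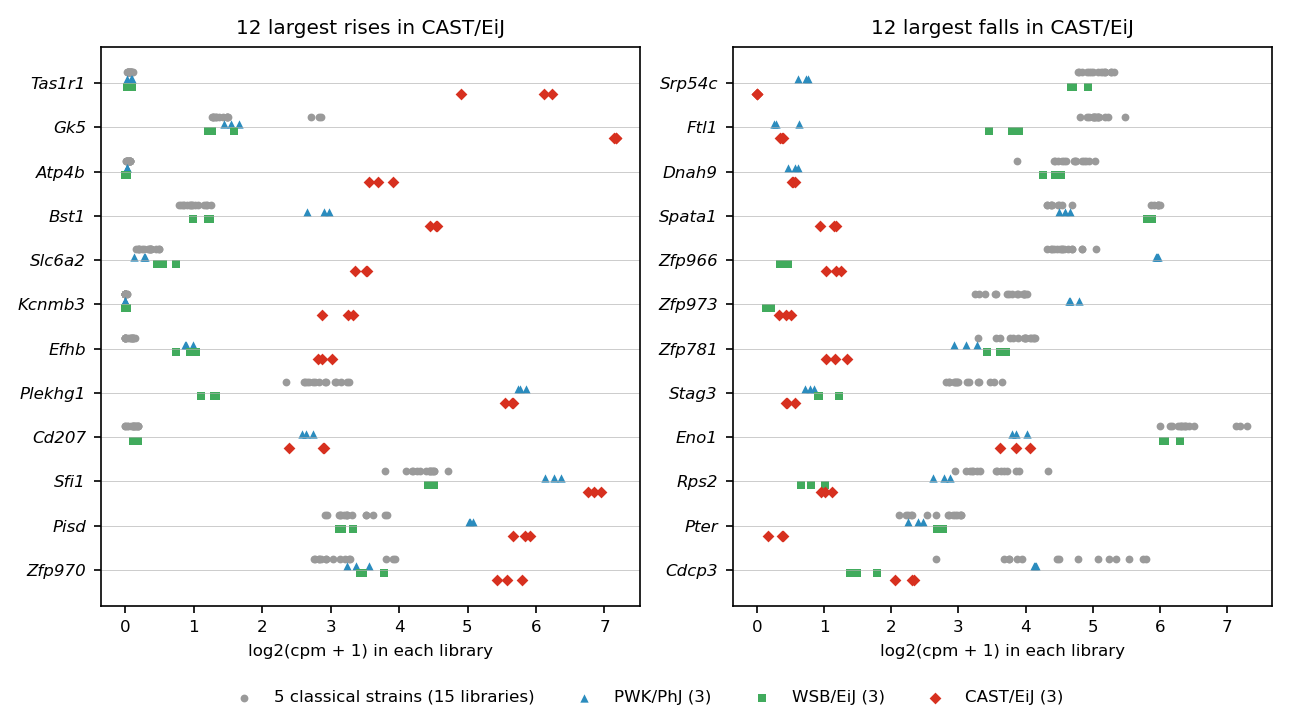
Level of the 24 protein-coding genes standing apart with the largest rises and falls (symbols starting with Gm or ending in Rik left out), as log2(cpm + 1) in each library of CAST/EiJ, the classical strains, PWK/PhJ and WSB/EiJ. In each gene the 3 CAST/EiJ points do not overlap the 15 classical points, and at Cd207 and Dnah9 the PWK/PhJ points lie with CAST/EiJ.

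Several rises were present in PWK/PhJ too. Plekhg1, an exchange factor for small GTPases, was at 49.95, 49.1 and 45.7 cpm in CAST/EiJ and 4.11 to 8.597 (median 6.08) cpm in the classical libraries, 7.55-fold higher (2.76 ± 0.06, q = 1.62e-17). PWK/PhJ averaged 54.2 cpm, which did not differ from CAST/EiJ at the limit (q = 0.0350), whereas WSB/EiJ averaged 1.37 cpm, under the lowest classical library. Cd207, which encodes langerin of Langerhans cells and some dendritic cells, gave 6.45, 6.42 and 4.27 cpm in CAST/EiJ and 0 to 0.144 cpm in the classical libraries (2.62 ± 0.07, q = 2.37e-16). Its PWK/PhJ mean was 5.30 cpm (q = 0.175 against CAST/EiJ) and its WSB/EiJ mean 0.107 cpm. Sfi1, a centrin-binding protein of the centrosome, stood at 122, 114 and 107 cpm against 12.9 to 25.4 (median 20.6) cpm, 5.83-fold higher (2.50 ± 0.08, q = 1.46e-15), with 75.4 cpm in PWK/PhJ and 21.03 cpm in WSB/EiJ. Pisd, the mitochondrial enzyme that makes phosphatidylethanolamine from phosphatidylserine, was at 56.5, 49.5 and 59.0 cpm against 6.59 to 13.1 (median 8.44) cpm (2.48 ± 0.08, q = 2.57e-15), and PWK/PhJ had 32.1 cpm. The value of Pisd is uncertain, because 22.5% of its words occur in other genes and 20.9% of its exon bases overlap another gene. Its pseudogene Pisd-ps1, a neighbour of Sfi1 named after its values were seen, averaged 95.0 cpm in CAST/EiJ and 8.59 cpm in the classical strains.

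Among protein-coding genes standing apart and not known to have near-identical copies, large falls were those of Dnah9, Spata1, Stag3, Pter and Cdcp3. Dnah9, a heavy chain of the dynein that drives motile cilia, was at 0.452, 0.475 and 0.431 cpm in CAST/EiJ and 13.7 to 31.8 (median 25.5) cpm in the classical libraries, 54.2-fold lower (-4.11 ± 0.09, q = 1.08e-17). PWK/PhJ was as low, at 0.462 cpm (q = 0.324 against CAST/EiJ), and WSB/EiJ had 20.3 cpm. Spata1, named for an association with spermatogenesis, gave 1.22, 0.924 and 1.25 cpm in CAST/EiJ and 18.9 to 63.3 (median 22.4) cpm in the classical libraries (-3.96 ± 0.05, q = 4.06e-21). The classical strains themselves divided into a higher pair, NOD/ShiLtJ (60.0 cpm) and A/J (61.7 cpm), and 3 lower strains, and the fall no longer passed the limit with strain means as units. Stag3, a cohesin subunit of meiotic chromosomes, was at 0.343, 0.359 and 0.483 cpm against 6.01 to 11.5 (median 6.93) cpm, 19.9-fold lower (-2.64 ± 0.06, q = 6.95e-18). Both other wild-derived strains were low for Stag3 as well, PWK/PhJ at 0.723 cpm and WSB/EiJ at 1.04 cpm. Pter, a phosphotriesterase-related protein, was 22.7-fold lower at 0.123, 0.308 and 0.300 cpm against 3.31 to 7.22 (median 6.19) cpm (-2.36 ± 0.07, q = 2.59e-16), and here PWK/PhJ (4.20 cpm) and WSB/EiJ (5.58 cpm) sat with the classical strains. Cdcp3 had 3.93, 4.07 and 3.16 cpm in CAST/EiJ and a wide spread of 5.33 to 54.3 (median 21.6) cpm among classical libraries (-2.31 ± 0.15, q = 1.15e-10). WSB/EiJ was lower still at 1.95 cpm, and with strain means as units Cdcp3 was not called. Cdcp3 was not matched in the annotation, so the share of its sequence found in other genes is unknown.

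Other large falls were at genes with near-identical copies, and their values are uncertain. Srp54c, a copy of the signal recognition particle subunit that binds signal peptides, was listed at 0 in the 3 CAST/EiJ libraries and at 26.5 to 38.9 (median 32.9) cpm in the classical ones (-5.06 ± 0.06, q = 1.27e-21). Of its words, 96.0% occur in another gene. The copies Srp54b and Srp54a, chosen after their values were seen, were also lower in CAST/EiJ, at means of 14.99 and 10.4 cpm against 31.4 and 20.1 cpm. Ftl1, the ferritin light chain, had 0.296, 0.262 and 0.307 cpm in CAST/EiJ and 27.0 to 43.5 (median 31.8) cpm in the classical libraries, 113-fold lower (-4.70 ± 0.06, q = 6.33e-21). PWK/PhJ shared the low level (0.318 cpm). Its pseudogene Ftl1-ps1, also chosen after its values were seen, went the other way, with 20.1 cpm in CAST/EiJ and 9.72 cpm in the classical strains. The glycolytic enzyme genes Eno1 and Gapdh were at 15.7, 11.3 and 13.6 cpm against 63.3 to 157 (median 81.5) cpm (-2.64 ± 0.08, q = 5.67e-16) and at 21.6, 16.6 and 17.3 cpm against 76.2 to 101.2 (median 87.3) cpm (-2.19 ± 0.07, q = 2.30e-15). Eno1b, which shares words with Eno1, averaged 348 cpm in CAST/EiJ and 295 cpm in the classical strains, the Eno1 copy Gm4735 averaged 72.4 and 78.4 cpm, and the Gapdh pseudogene Gm7336 averaged 94.2 and 63.3 cpm. Eno1b, Gm4735 and Gm7336 each overlapped between groups.

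Ribosomal protein genes had copies that moved either way. Rps2 was at 1.02, 0.930 and 1.16 cpm in CAST/EiJ against 6.69 to 19.1 (median 10.8) cpm (-2.47 ± 0.09, q = 1.96e-14), and WSB/EiJ was as low (0.780 cpm). Of its copies, chosen after their values were seen, Rps2-ps10 was lower with it (means of 5.35 cpm in CAST/EiJ and 20.6 cpm in the classical strains) and the X-linked pseudogene Rps2-ps13 was higher (22.7 and 0.0576 cpm). Rpl7a fell by 1.5997 on the log2 scale (1.35, 1.56 and 1.36 cpm against 5.35 to 7.01 (median 6.45) cpm) and Rps15 by 1.35 (12.6, 10.3 and 12.2 cpm against 28.0 to 37.2 (median 31.7) cpm), with 45.1% and 49.8% of their words in other genes. The copies of Rpl7a, again chosen after their values were seen, were lower at Rpl7a-ps11 (5.37 and 17.1 cpm) and Gm8226 (5.88 and 20.1 cpm) and higher at Gm16477 (8.87 and 0.0347 cpm), and the copy Rps15-ps2 was higher (10.6 and 2.89 cpm). Of 80 cytosolic ribosomal protein genes, 70 were tested, of which 10 were higher and 28 lower (54.3% called), with a median log2 difference of -0.10 (-0.24 to -0.06), and 3 stood apart, all lower. The summed level of the list overlapped between groups, at 740.0 to 815 cpm in CAST/EiJ and 804 to 1084 cpm in the classical libraries, and PWK/PhJ (701 to 781 cpm) was below every classical library.

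Among genes of other biotypes standing apart the largest rises were at 3 neighbouring unprocessed pseudogenes on chromosome 2 whose sequence resembles mitochondrial genes. Gm13341 was at 523, 489 and 652 cpm in CAST/EiJ and 0.0336 to 0.200 (median 0.0912) cpm in the classical libraries (8.98 ± 0.06, q = 7.30e-25). Gm13340 was at 1713, 1623 and 2022 cpm against 0.508 to 150.2 (median 0.795) cpm (8.76 ± 0.07, q = 3.12e-24), where NZO/HlLtJ alone among the classical strains was raised, with a mean of 133 cpm, and this gene was not called with strain means as units. Gm13339 was at 59.5, 52.1 and 65.1 cpm against 0.0136 to 0.0424 (median 0.0179) cpm (5.86 ± 0.05, q = 6.24e-24). PWK/PhJ was high at the 3 genes as well, with 215, 1236 and 45.7 cpm, and WSB/EiJ was not, with 0.0961, 0.601 and 0.0477 cpm. The share of words found in other genes was 48.0% for Gm13341, 50.4% for Gm13340 and 28.3% for Gm13339. The mitochondrial genes that hold those words were not higher, as mt-Co2 averaged 392 cpm in CAST/EiJ against 488 cpm, mt-Co1 1937 against 3178 cpm and mt-Nd2 113 against 134 cpm. Of these, mt-Co2 and mt-Nd2 overlapped between groups. Another pseudogene sharing words with Gm13340, Gm29216, was lower (15.2 against 111 cpm). How reads were divided between these copies was not tested. The first 90 bases of Gm13341 (chr2:22587873-22587962, minus strand) and of mt-Co2 (chrM:7013-7102, plus strand), from GENCODE M21 transcripts on GRCm38, show how close the copies are, with the 2 differing bases in capitals:
Gm13341: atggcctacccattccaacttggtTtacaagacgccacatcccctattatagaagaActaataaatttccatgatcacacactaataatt
mt-Co2: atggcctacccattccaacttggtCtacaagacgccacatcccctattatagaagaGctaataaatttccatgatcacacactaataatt

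The largest falls of other biotypes among genes standing apart were at 2 processed pseudogenes and a long noncoding RNA. Gm12918 had at most 0.0654 cpm in CAST/EiJ and 18.1 to 27.5 (median 21.1) cpm in the classical libraries (-4.45 ± 0.07, q = 3.09e-20). Its words were shared in full with Rpl13, which averaged 4.07 cpm in CAST/EiJ and 4.89 cpm in the classical strains and overlapped between groups. The like pseudogene Gm15710, chosen after its values were seen, averaged 17.9 cpm in CAST/EiJ and 0.0462 cpm in the classical strains. The HP1-gamma pseudogene Cbx3-ps6 had at most 0.0504 cpm in CAST/EiJ and 11.7 to 14.4 (median 13.2) cpm in the classical libraries (-3.80 ± 0.05, q = 6.33e-21). Cbx3 itself averaged 31.6 and 29.8 cpm and overlapped between groups, and the copy Cbx3-ps7 was the reverse, at 15.1 and 0.0403 cpm. Gm20139, a long noncoding RNA with none of its words in another gene, had at most 0.0137 cpm in CAST/EiJ, under the floor of 3 reads, and 12.3 to 24.5 (median 19.4) cpm in the classical libraries (-4.33 ± 0.08, q = 8.68e-19). PWK/PhJ was as low for Gm20139 (0.00983 cpm) and for Cbx3-ps6 (0.0169 cpm).

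Sequence shared with other genes was measured as the share of a gene's 31-base words, taken along its transcripts. For genes standing apart, a median of 11.4% of words occurred in transcripts of another gene, against 1.91% over all genes tested with a value. Of genes with under 1% of words shared, 1.79% stood apart, and of genes with at least 50% shared, 9.57%. Among 198 genes standing apart that had a partner in the table with at least 10% of their words, 38 had such a partner standing apart in the other direction and 52 one in the same direction. By biotype, 25.5% of 51 unprocessed pseudogenes, 6.40% of 844 processed pseudogenes, 6.03% of 962 long noncoding RNAs and 2.20% of 12518 protein-coding genes stood apart. The processed pseudogenes standing apart were 39 higher and 15 lower, and the protein-coding genes 106 higher and 169 lower. The part of shared sequence in these differences was not tested. With only genes sharing under 10% of their words in the fit, an alternative chosen after seeing the data, 5848 of 11554 genes differed and 74 stood apart higher and 129 lower.

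Some genes standing apart were neighbours. Of the 438, 186 (42.5%) lay within 500 kb of another. No such share was computed for other genes tested, so this one is a description only. In 6 stretches there were 4 or more genes standing apart. The longest, at chr2:175086501-177905784, is a cluster of zinc finger genes in which 27 of 41 genes tested stood apart, 13 higher and 14 lower. Zfp970 rose there, at 42.0, 54.4 and 46.8 cpm against 5.78 to 14.3 (median 7.20) cpm (2.43 ± 0.07, q = 4.00e-16). Zfp966 fell, at 1.04, 1.25 and 1.37 cpm against 19.0 to 32.3 (median 22.3) cpm (-3.44 ± 0.06, q = 7.93e-20), and Zfp973 fell, at 0.260, 0.413 and 0.344 cpm against 8.51 to 15.2 (median 12.8) cpm (-3.32 ± 0.08, q = 1.18e-17). The other wild-derived strains split at these genes, as PWK/PhJ was above the classical strains (Zfp966 61.1 cpm, Zfp973 25.02 cpm) and WSB/EiJ was low (Zfp966 0.323 cpm, Zfp973 0.119 cpm). Members of this cluster are alike in sequence, with 67.9% of the words of Zfp970, 93.9% of those of Zfp966 and 90.5% of those of Zfp973 in other genes, so the value of any one of them is uncertain.

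**Figure D3:**
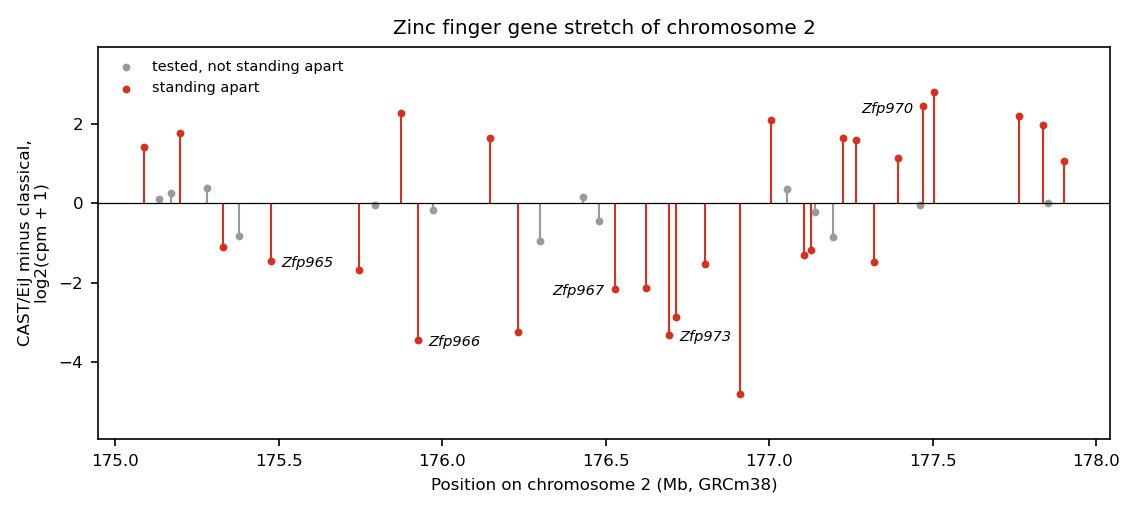
Difference in log2(cpm + 1) between CAST/EiJ and the classical strains for the 41 genes tested in the zinc finger stretch of chromosome 2, by position in Mb on GRCm38. The 27 genes standing apart, in red, point both ways, 13 up and 14 down, and the 14 other genes are grey.

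Zfp genes as a group encode DNA-binding proteins with tandem zinc fingers, many of them repressors of transposable elements. Of 387 in the table, 358 were tested, of which 106 were higher and 90 lower (54.7% called), and 5 stood apart higher and 9 lower. Their median log2 difference was 0.02 (-0.0016 to 0.06) with the deposited values and turned slightly negative in 2 of the alternatives run. Zfp781 on chromosome 10 was at 1.24, 1.04 and 1.53 cpm against 8.81 to 16.6 (median 14.9) cpm (-2.72 ± 0.07, q = 6.45e-17) in a stretch of 4 lowered genes, with 97.7% of its words shared. At the start of chromosome 2, Pter lies in a stretch with Cubn, the vitamin B12 and protein uptake receptor cubilin, which was just inside the size limit at 0.151, 0.154 and 0.183 cpm against 0.863 to 1.89 (median 1.35) cpm (-1.001 ± 0.06, q = 3.94e-11). Cubn was under the limit with median-ratio scaling (-0.9877), with quantile normalization (-0.9731) and without some single strains or libraries, and was not called with strain means as units (q = 0.01381). Just inside on the other side was Ccdc151 (3.89, 3.94 and 3.94 cpm against 0.959 to 1.90 (median 1.54) cpm, difference 1.00), which was under the limit without C57BL/6J (0.9493), A/J (0.9756) or some single libraries. Just outside were Mospd3 (2.41 cpm against 0.716 cpm, 0.996) and 1500011B03Rik (7.19 cpm against 15.4 cpm, -0.9998).

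Cell types were read from lists of marker genes. In bulk tissue, fewer cells of a type and less RNA per cell cannot be told apart. Photoreceptor genes first: of 25 rod phototransduction genes, 24 were tested, and 15 were higher in CAST/EiJ (62.5% called), against 21.2% of all genes, with a median log2 difference of 0.16 (0.13 to 0.21). No rod gene was lower at q under 0.01 or at an unadjusted p under 0.05 in limma, but under quantile normalization 11 were higher and 2 lower. Guca1a, the calcium sensor of photoreceptor guanylate cyclase, was at 166, 162 and 172 cpm against 84.4 to 109 (median 94.2) cpm, 1.75-fold higher (0.81 ± 0.04, q = 2.29e-13). Grk1, a photoreceptor kinase that ends the light response, was at 1182, 1162 and 1145 cpm against 625 to 851 (median 718) cpm (0.68 ± 0.04, q = 2.00e-11), with Guca1a and Grk1 above every classical library. Gngt1, the rod transducin gamma subunit chosen after its values were seen, averaged 543 cpm against 355 cpm. The rod list summed to 18805 to 20327 cpm in CAST/EiJ and 15430.0 to 19304 cpm in the classical libraries, which overlap. With strain means as units, 1 rod gene was higher.

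Cone genes moved both ways. Of 16 listed, 14 were tested, 5 higher and 5 lower (71.4% called), with a median of 0.05 (0.01 to 0.10). Opn1sw, the short-wavelength opsin, was lower at 65.1, 57.7 and 57.8 cpm against 90.6 to 129 (median 107) cpm (-0.82 ± 0.06, q = 4.03e-10), while 15.5% of its exon bases overlap another gene. PWK/PhJ (124 cpm) and WSB/EiJ (146 cpm) were not low. Pde6c, the cone phosphodiesterase, was higher at 26.0, 24.9 and 24.98 cpm, inside a wide classical range of 9.95 to 35.9 (median 13.8) cpm (0.66 ± 0.04, q = 1.14e-10), and its inhibitory subunit Pde6h, chosen after its values were seen, rose by 0.65 on the log2 scale. Ribbon synapse genes of photoreceptors gave 6 higher and 4 lower of 19 tested (20 listed; 52.6% called), with a median of 0.04 (0.01 to 0.09). Cabp4, the calcium-binding regulator of the synaptic calcium channel, was at 78.3, 76.8 and 77.2 cpm against 46.8 to 65.0 (median 57.3) cpm (0.43 ± 0.05, q = 9.46e-08), and Cplx3, a complexin, at 56.8, 55.2 and 53.2 cpm against 63.5 to 82.4 (median 72.2) cpm (-0.38 ± 0.04, q = 5.48e-08). The sums of both lists overlapped between groups, at 429.9 to 445 cpm in CAST/EiJ for cones (418 to 575 cpm in the classical libraries) and 2807 to 2884 cpm for the synapse (2658 to 3025 cpm). None of these cone and synapse genes was called with strain means as units.

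Of 20 bipolar genes, 19 were tested, 3 higher and 9 lower (63.2% called, where 21.2% of all genes were higher and 30.1% lower), with a median of -0.16 (-0.20 to -0.03). Trpm1, the cation channel that opens in ON bipolar cells in response to light, was at 149, 141 and 139 cpm against 169 to 223 (median 206) cpm (-0.47 ± 0.04, q = 5.04e-10), and Bhlhe23, a transcription factor of rod bipolar cells, at 3.38, 3.58 and 3.17 cpm against 4.93 to 8.18 (median 6.11) cpm (-0.73 ± 0.07, q = 3.14e-08). Cabp5, a calcium-binding protein of rod bipolar and some cone bipolar cells, went the other way at 66.8, 59.2 and 67.7 cpm against 22.7 to 49.4 (median 39.6) cpm (0.85 ± 0.05, q = 1.34e-11), and PWK/PhJ was at the same level (68.2 cpm, q = 0.131). Amacrine genes split 5 higher and 6 lower of 23 (47.8% called), with a median of 0.02 (-0.04 to 0.06) that turned negative in 3 of the alternatives run. Vip, the peptide of a set of amacrine cells, was at 1.29, 1.49 and 1.37 cpm against 2.33 to 6.11 (median 3.56) cpm (-1.002 ± 0.07, q = 4.62e-10), at the size limit and just short of it under median-ratio scaling (-0.97), under quantile normalization (-0.9538) and without some single strains or libraries. The bipolar list summed to 738 to 774 cpm in CAST/EiJ and 737 to 897 cpm in the classical libraries, and the amacrine list to 460.1 to 483 cpm and 438 to 531 cpm, and both overlapped between groups. With strain means as units no bipolar or amacrine gene was called.

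Markers of horizontal cells, ganglion cells and Müller glia were lower as summed levels in every CAST/EiJ library than in any classical one, under all 3 scalings. Horizontal cell genes summed to 207 to 210.3 cpm against 263 to 304 cpm, with 5 of 8 tested (9 listed; 62.5% called) lower, none higher at q under 0.01 or at an unadjusted p under 0.05, and a median of -0.35 (-0.50 to -0.30). Slc4a5, a bicarbonate transporter, stood apart at 5.17, 4.53 and 4.75 cpm against 8.58 to 14.04 (median 12.7) cpm (-1.17 ± 0.08, q = 2.65e-10), while Ndnf, the most abundant gene of the list, was at 79.2, 80.3 and 82.4 cpm against 93.3 to 135 (median 118) cpm (-0.50 ± 0.04, q = 7.84e-10). Onecut1, a defining transcription factor of horizontal cells chosen after its values were seen, averaged 1.71 cpm in CAST/EiJ and 1.72 cpm in the classical strains. Ganglion cell genes summed to 232 to 237 cpm against 283 to 382 cpm, with 1 higher and 13 lower of 18 tested (19 listed; 77.8% called) and a median of -0.29 (-0.33 to -0.23). Thy1, a surface glycoprotein, was at 17.1, 15.3 and 17.9 cpm against 24.8 to 36.0 (median 31.4) cpm (-0.84 ± 0.05, q = 3.94e-11), and the neurofilament genes Nefh and Nefl were at 17.2, 18.4 and 17.8 cpm against 26.7 to 41.3 (median 32.9) cpm (-0.84 ± 0.06, q = 1.28e-10) and 91.7, 91.3 and 90.1 cpm against 100.8 to 174 (median 129) cpm (-0.51 ± 0.04, q = 6.13e-10). Neither PWK/PhJ (338 cpm) nor WSB/EiJ (318 cpm) had a low sum for ganglion cell genes, but the horizontal cell sum of PWK/PhJ (241 to 249 cpm) was also below every classical library, and that of WSB/EiJ (303 to 321 cpm) was not. The fit on strain means called 1 horizontal and 2 ganglion cell genes lower, and Ndnf, Nefh and Nefl were not among them.

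Müller glia genes summed to 1178 to 1259.5 cpm against 1378 to 1720.4 cpm, with 4 higher and 11 lower of 19 tested (20 listed; 78.9% called) and a median of -0.29 (-0.31 to -0.21). The Müller glia sum of WSB/EiJ (1259 to 1340 cpm) was below every classical library as well, while that of PWK/PhJ (1342 to 1443 cpm) overlapped them. Glul, the glutamine synthetase that clears glutamate, was at 528, 499.5 and 548 cpm, overlapping 523 to 769 (median 647) cpm (-0.31 ± 0.05, q = 4.96e-06), and PWK/PhJ (540.2 cpm) and WSB/EiJ (536 cpm) did not differ from CAST/EiJ at the limit. Clu, the secreted chaperone clusterin, was at 63.0, 55.7 and 66.7 cpm against 81.5 to 138 (median 106) cpm (-0.75 ± 0.10, q = 1.02e-06). Crym, a thyroid hormone-binding protein, went the other way at 12.7, 11.1 and 11.8 cpm, overlapping 1.72 to 12.5 (median 7.71) cpm (0.73 ± 0.07, q = 1.32e-08). Microglia and complement genes summed to 17.2 to 17.5 cpm against 23.2 to 36.8 cpm, and each of the 12 tested (18 listed) was lower, with a median of -0.33 (-0.68 to -0.29) and none higher at an unadjusted p under 0.05. Under each of the other scalings 10 of the 12 were lower. With strain means as units 1 Müller glia gene and no microglia gene was called.

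**Figure D4:**
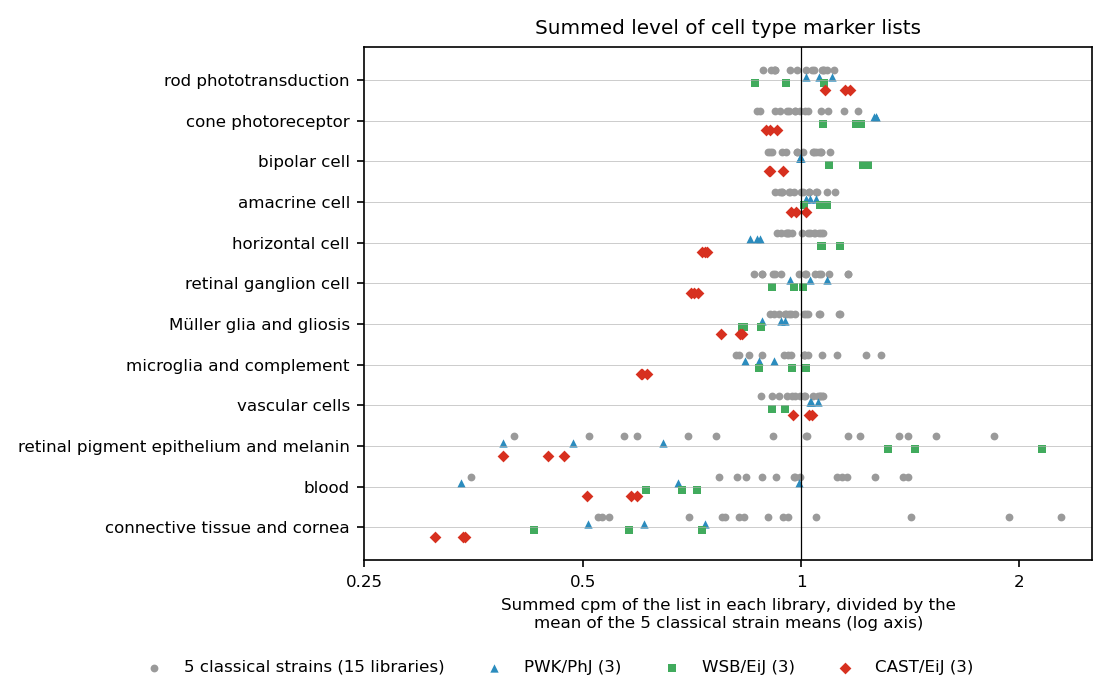
Summed cpm of 12 marker lists in each library over the mean of the classical strain means, on a log axis, for CAST/EiJ, the classical strains, PWK/PhJ and WSB/EiJ. The CAST/EiJ points for horizontal cells, ganglion cells, Müller glia, microglia and connective tissue lie below every classical point.

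Vascular genes gave 1 higher and 8 lower of 15 (60.0% called), with a median of -0.27 (-0.33 to -0.18) and overlapping sums (172 to 182 cpm against 155 to 189 cpm). Rgs5, a pericyte regulator of G-protein signalling, stood apart at 6.85, 9.12 and 10.3 cpm against 18.4 to 30.2 (median 23.6) cpm (-1.34 ± 0.08, q = 1.03e-11) and differed from both PWK/PhJ (28.3 cpm) and WSB/EiJ (29.3 cpm). Kdr, the VEGF receptor of endothelium, was the gene that rose, at 102, 96.6 and 93.8 cpm against 58.1 to 81.4 (median 67.3) cpm (0.50 ± 0.04, q = 4.74e-10). It is the most abundant gene of the vascular list and makes up much of its sum, so the overlapping sums do not describe the other genes. Pigment epithelium and melanin genes gave 8 lower of 10 tested (16 listed; 80.0% called) and none higher at q under 0.01 or an unadjusted p under 0.05, with a median of -0.64 (-0.93 to -0.53) and overlapping sums of 20.9 to 25.4 cpm against 21.7 to 99.5 cpm. Pmel, which builds the fibrils of melanosomes, was at 0.493, 0.398 and 0.444 cpm against 1.35 to 12.1 (median 3.36) cpm (-1.62 ± 0.28, q = 2.15e-05), and tyrosinase Tyr at 0.329, 0.308 and 0.444 cpm, overlapping 0.408 to 1.88 (median 1.23) cpm (-0.63 ± 0.13, q = 1.12e-04). Rgr, the most abundant of the list, had 6.47, 5.34 and 6.36 cpm within 4.595 to 38.4 (median 7.65) cpm and was not called (q = 0.0158), though it was without A/J replicate 1 (q = 4.21e-04) or C57BL/6J replicate 2 (q = 0.00727). Pmel, Tyr and Kdr were not called with strain means as units, and the part of adhering tissue in these values was not tested.

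Connective tissue and cornea genes summed to 4.12 to 4.53 cpm in CAST/EiJ against 6.91 to 30.0 cpm, with 5 lower of 7 tested (11 listed; 71.4% called), none higher at an unadjusted p under 0.05, and a median of -0.73 (-1.82 to -0.58). The collagen genes Col1a1 and Col3a1 stood apart, at 0.151, 0.205 and 0.261 cpm against 0.527 to 3.82 (median 1.46) cpm (-1.08 ± 0.15, q = 3.02e-06) and 0.288, 0.385 and 0.379 cpm against 1.14 to 3.51 (median 1.87) cpm (-1.09 ± 0.15, q = 1.55e-06), and Col1a2, the most abundant, was at 1.49, 1.37 and 1.34 cpm, overlapping 1.41 to 5.63 (median 2.91) cpm (-0.76 ± 0.14, q = 3.65e-05). Blood genes gave 3 lower of 4 tested (10 listed, up to 4 of them at 0 in a CAST/EiJ library), none higher at an unadjusted p under 0.05, and a median of -0.58 (-0.80 to -0.46), with sums of 11.2 to 13.1 cpm inside the classical range of 7.72 to 30.9 cpm. The hemoglobin genes Hbb-bs (6.97, 5.29 and 6.59 cpm against 3.47 to 16.8 (median 11.9) cpm, -0.72 ± 0.21, q = 0.00237) and Hba-a2 (0.818, 0.361 and 0.460 cpm against 0.209 to 5.63 (median 0.881) cpm, -0.73 ± 0.17, q = 3.46e-04) overlapped between groups, and Hbb-bs was not called without CAST/EiJ replicate 2 (q = 0.0166). Lens genes, 22 listed and tested, had their largest sums in single libraries of a strain. They summed to 12.4 to 34.7 cpm in CAST/EiJ but to 2616 cpm in NOD/ShiLtJ replicate 2, 2184 cpm in 129S1/Svlmj replicate 2 and 307 cpm in C57BL/6J replicate 2. None was lower at q under 0.01, 1 was at an unadjusted p under 0.05, and Hsf4, a heat shock factor of lens, was higher (0.685, 0.603 and 0.796 cpm, overlapping 0.301 to 0.747 (median 0.512) cpm, 0.17 ± 0.06, q = 0.00688) but not without CAST/EiJ replicate 1 (q = 0.0195) or 3 (q = 0.0516). The lens list had a median of -0.998 (-1.33 to -0.19), which was -0.188 without the 3 lens-rich libraries, and Cryaa, its most abundant crystallin, was at 9.20, 1.99 and 8.93 cpm within 1.81 to 755 (median 7.07) cpm (q = 0.117). No blood, connective tissue or lens gene was called with strain means as units.

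Of 23 GABA and glycine receptor genes, 18 were tested, 2 higher and 7 lower (9 of 18 called, against 51.3% of all genes tested), with a median of -0.08 (-0.10 to -0.04), and their sum was below every classical library under all 3 scalings (347 to 352 cpm against 369 to 419 cpm). Gabra4, an alpha subunit of the GABA-A receptor, rose, at 6.39, 6.97 and 6.59 cpm against 2.34 to 4.18 (median 3.47) cpm (0.82 ± 0.07, q = 2.95e-09), and Gabrr2, a subunit of bipolar cell GABA receptors, fell, at 9.76, 9.22 and 9.44 cpm against 11.7 to 15.7 (median 13.4) cpm (-0.48 ± 0.05, q = 4.00e-08). Glutamate receptor genes gave 5 higher and 13 lower of 24 tested (26 listed; 75.0% called), with a median of -0.12 (-0.16 to -0.07), and 8 lower under median-ratio scaling. Grm8, a presynaptic autoreceptor of photoreceptors and other cells, was at 11.3, 11.03 and 11.5 cpm against 18.8 to 23.5 (median 20.6) cpm (-0.84 ± 0.04, q = 1.99e-12), and Grm6, the glutamate receptor of ON bipolar cells, at 19.0, 19.5 and 16.6 cpm, overlapping 18.4 to 32.1 (median 24.6) cpm (-0.39 ± 0.07, q = 3.25e-05). The glutamate receptor sum (446 to 454 cpm against 455 to 531 cpm) overlapped between groups once scaled by median ratios. Dopamine and melatonin signalling genes, 16 listed and 9 tested, gave 1 higher and 3 lower (44.4% called), with a median of 0.04 (-0.21 to 0.08) that was negative in 2 of the alternatives. Adra2a, the alpha-2A adrenergic receptor, stood apart at 0.370, 0.462 and 0.405 cpm against 1.42 to 3.69 (median 2.33) cpm (-1.28 ± 0.07, q = 4.49e-12). Their sum, 76.1 to 77.8 cpm against 80.0 to 93.4 cpm, overlapped between groups under quantile normalization, and WSB/EiJ was about as low at 67.2 to 81.2 cpm. The fit on strain means kept 1 glutamate receptor call and none among GABA, glycine, dopamine or melatonin genes.

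Of 26 circadian clock genes, 24 were tested, 5 higher and 6 lower (45.8% called, against 51.3% of all genes tested), with a median of -0.04 (-0.07 to 0.0043) that was positive under median-ratio scaling. Fbxl21, a ubiquitin ligase subunit that acts on cryptochromes, was at 1.95, 2.03 and 2.13 cpm against 0.826 to 1.27 (median 0.966) cpm (0.60 ± 0.05, q = 4.99e-09), and Rorb, a nuclear receptor needed for rod development, at 183, 174 and 175 cpm, within 88.1 to 208 (median 135) cpm (0.40 ± 0.06, q = 6.08e-06). The sum of the clock list was 947 to 962 cpm, inside the classical range of 862 to 1016 cpm. Immediate early genes, which follow neural activity and tissue handling within minutes, gave 4 lower of 10 tested (15 listed; 40.0% called), none higher at an unadjusted p under 0.05, and a median of -0.22 (-0.25 to -0.06), smallest in size without CAST/EiJ replicate 1. Jun (6.65, 7.63 and 7.48 cpm against 6.41 to 10.6 (median 9.12) cpm, -0.24 ± 0.08, q = 0.00415) and Junb (2.63, 3.48 and 2.74 cpm against 2.52 to 5.35 (median 3.61) cpm, -0.29 ± 0.08, q = 0.00203), subunits of the AP-1 transcription factor, overlapped between groups. Without CAST/EiJ replicate 1 neither was called (q = 0.0326 for Jun and 0.01998 for Junb), nor without replicate 3 (q = 0.0108 and 0.0163). Their list summed to 46.6 to 62.0 cpm, overlapping 47.4 to 81.2 cpm. With strain means as units, 1 clock gene and no immediate early gene was called.

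Of 42 interferon-induced genes, 20 were tested, 1 higher and 12 lower (65.0% called, where 21.2% of all genes were higher and 30.1% lower), with a median of -0.27 (-0.50 to -0.19), 3 genes standing apart, and a sum below every classical library under all 3 scalings (39.4 to 41.3 cpm against 51.1 to 70.1 cpm). Ifit2, which binds viral RNA, was at 0.644, 0.745 and 0.744 cpm against 3.45 to 5.79 (median 4.54) cpm, 6.39-fold lower (-1.69 ± 0.05, q = 1.05e-15), while PWK/PhJ (3.99 cpm) and WSB/EiJ (4.10 cpm) were at classical levels. Gbp7, a guanylate-binding protein, was at 0.479, 0.449 and 0.365 cpm against 2.42 to 3.18 (median 2.88) cpm (-1.43 ± 0.06, q = 3.41e-13), and PWK/PhJ was as low (0.400 cpm, q = 0.258). Irf7, the transcription factor that amplifies the interferon response, was at 0.397, 0.437 and 0.313 cpm against 1.71 to 2.996 (median 2.11) cpm (-1.21 ± 0.06, q = 1.23e-12). With strain means as units 3 genes of this list were called lower. MHC class I and antigen processing genes, 25 listed and 13 tested, gave 2 higher and 4 lower (46.2% called), with a median of -0.13 (-0.17 to -0.03) and overlapping sums (141 to 154 cpm against 143 to 176 cpm). Erap1, the aminopeptidase that trims peptides for MHC class I, was raised at 17.0, 17.2 and 18.9 cpm against 4.25 to 7.81 (median 5.83) cpm, 2.96-fold higher (1.43 ± 0.07, q = 9.73e-13), with both other wild-derived strains at classical levels (4.99 and 5.44 cpm). H2-D1, a class I heavy chain, was at 1.31, 1.59 and 1.28 cpm against 3.88 to 8.17 (median 6.10) cpm (-1.502 ± 0.08, q = 4.28e-12), an uncertain value because 26.9% of its words occur in other genes and because the call was lost with strain means as units.

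Glutathione and redox genes gave 2 higher and 16 lower of 25 tested (35 listed; 72.0% called, where 21.2% of all genes were higher and 30.1% lower) and a median of -0.26 (-0.32 to -0.21). The glutathione transferase Gstm7 stood apart upwards at 6.43, 6.29 and 6.67 cpm against 0.857 to 1.75 (median 1.12) cpm, 5.36-fold higher (1.77 ± 0.07, q = 3.26e-14), and was at classical levels in PWK/PhJ (1.17 cpm) and WSB/EiJ (0.984 cpm). Gsta4, the transferase for lipid peroxidation products such as 4-hydroxynonenal, stood apart downwards at 1.88, 1.78 and 2.08 cpm against 3.56 to 6.61 (median 5.50) cpm (-1.12 ± 0.07, q = 2.37e-11). The redox list summed to 92.0 to 95.3 cpm, overlapping 93.1 to 137 cpm. BMP and TGF-beta pathway genes gave 4 higher and 19 lower of 35 tested (42 listed; 65.7% called), 6 higher and 15 lower under median-ratio scaling, with a median of -0.12 (-0.15 to -0.08) and none standing apart. Ltbp1 and Ltbp2, which hold latent TGF-beta in the matrix, were at 1.08, 1.13 and 1.44 cpm against 1.42 to 6.59 (median 4.56) cpm (-1.05 ± 0.24, q = 4.09e-04) and 0.164, 0.321 and 0.235 cpm against 0.0586 to 4.89 (median 1.81) cpm (-0.91 ± 0.30, q = 0.00440), both overlapping between groups. Their list summed to 377 to 389.5 cpm against 397 to 451 cpm, a gap that was lost under both other scalings. On strain means 1 redox gene was higher and 2 lower, Gsta4 not among them (q = 0.01128), and no BMP or TGF-beta gene was called, and Ltbp2 was lost without CAST/EiJ replicate 1 (q = 0.0188), 2 (q = 0.0114) or 3 (q = 0.0168).

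Glycolysis genes moved in both directions. Of 24 listed, 22 were tested, 9 higher and 8 lower (77.3% called), with a median of 0.00 (-0.05 to 0.08) whose sign changed in 6 of the alternatives, and the falls of Eno1 and Gapdh described above were the ones standing apart. Of the genes that rose, Hk2, the hexokinase that is abundant in photoreceptors, averaged 173 cpm against 92.4 cpm (difference 0.98) and Aldoc, an aldolase, 154 against 92.8 cpm (0.73), both chosen after their values were seen. The list summed to 2804 to 3084 cpm, inside 2479 to 3307 cpm, and on strain means 1 gene was higher and 2 lower. Mitochondrially encoded genes gave 4 higher and 5 lower of 13 (69.2% called), with a median of 0.23 (-0.06 to 0.30) that was negative among genes with under 10% of words shared, and 6 higher and 2 lower under median-ratio scaling. mt-Nd6, the complex I subunit encoded on the opposite strand to the other mitochondrial proteins, stood apart at 6.69, 5.57 and 5.91 cpm against 8.06 to 21.9 (median 14.2) cpm (-1.09 ± 0.17, q = 7.26e-06). mt-Nd4, another complex I subunit, chosen after its values were seen, rose by 0.80 on the log2 scale. The mitochondrial sum, 5286 to 6296 cpm, overlapped that of the classical libraries (5259.5 to 8002 cpm) but was below each of them under quantile normalization (5328 to 5662 against 5719 to 7076). PWK/PhJ was lower still (3560 to 4140 cpm), and mt-Nd6 was the only gene of the list called on strain means. The sum leaves out the pseudogenes described above that resemble mitochondrial genes and were high in CAST/EiJ and PWK/PhJ. How reads were divided between them and the mitochondrial genes was not tested, so the direction of the sum is uncertain.

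Clustered protocadherins, the adhesion proteins whose combinations mark single neurons, gave 13 higher and 29 lower of 55 tested (56 listed; 76.4% called), with a median of -0.13 (-0.67 to -0.09), largest in size among genes with under 10% of words shared. Pcdha1, the first alpha gene of the cluster, stood apart upwards at 1.75, 1.36 and 1.96 cpm against 0.0752 to 0.631 (median 0.248) cpm (1.06 ± 0.07, q = 7.88e-11; 0.9834 without CAST/EiJ replicate 3), and WSB/EiJ was at the same level (1.67 cpm, q = 0.296). Pcdha1 passed the limit on the mean only through the CAST/EiJ libraries, so its q lends the gap no independent support. Its value is uncertain because alpha transcripts share exons, and 53.5% of its exon bases overlap another gene. Pcdhb16, a beta gene, stood apart downwards at 9.65, 10.8 and 11.2 cpm against 19.4 to 32.1 (median 20.8) cpm (-1.04 ± 0.05, q = 1.29e-12), and was just under the size limit with either other scaling. The list summed to 419 to 425 cpm against 450.2 to 580.1 cpm, which overlapped under both other scalings. The sum of PWK/PhJ (445 to 449.6 cpm) was also below every classical library. On strain means 2 genes were higher and none lower.

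Over the 28 lists, 11 had a summed level in the 3 CAST/EiJ libraries below every classical library, 17 overlapped and none lay above. Under median-ratio scaling 8 were below and 1 above, and under quantile normalization 9 were below and 1 above. The 1 above was the Zfp list under the former and the rod list under the latter. How often sums of other sets of genes lie below every classical library was not computed, so these counts are a description only. Some lists share genes, and of all genes tested 21.2% were higher and 30.1% lower in CAST/EiJ.

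CAST/EiJ was also tested against each of the other wild-derived strains. Of 93 genes picked for naming that were tested, 62 differed between CAST/EiJ and PWK/PhJ (41.1% of all genes tested did) and 78 between CAST/EiJ and WSB/EiJ (43.8%), in a fit to all 24 libraries. Of the 53 of these genes standing apart from the classical strains, 40 differed from both strains, among them Tas1r1, Gk5, Atp4b, Slc6a2, Gstm7 and Erap1. Another 11 differed from WSB/EiJ only, among them Plekhg1, Cd207, Dnah9, Ftl1, Eno1, Gbp7 and Cbx3-ps6. The other 2, Rps2 and Pcdha1, differed from PWK/PhJ only, and whether the difference from one strain exceeds that from the other was not tested. These comparisons use the same CAST/EiJ libraries, so the counts are not independent of one another. Most of the genes were also picked for the difference of these libraries from the classical strains, which favours high counts. The share of all genes tested that differed from both strains was not computed.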

How the data were processed

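Retinal RNA of 8 inbred strains was measured by sequencing of libraries from a stranded total RNA kit with ribosomal RNA depletion. The authors trimmed low-quality bases, ran STAR against GRCm38/mm10 for every strain and counted genes by the E/M model of Partek (no versions given). The deposited values are cpm, which the authors obtained from counts as a fraction of all reads in a library, per fixed total of reads, with 0.0001 added. Their methods name RefSeq as annotation, while the table carries symbols and biotypes of the Ensembl kind, and no statement is made on strand in the counting. The listed values sum to 342217 to 353336 cpm in CAST/EiJ libraries and 336696 to 366567 cpm in classical ones. The E/M model divides reads, and 87.8% to 88.0% of the CAST/EiJ values and 88.1% to 89.9% of the classical values under 0.5 cpm were whole numbers of reads within 0.05 reads. Total reads came from the size of 1 read in each library.

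Strains were taken from the labels and all 24 columns were mapped. Of 28802 genes, 16390 had a mean of at least 0.5 cpm over the 18 libraries, and 538 of these on X or Y were left out. The added 0.0001 was removed, and log2(cpm + 1) was fitted with limma (version 3.58.1 in R 4.3.3) with 1 mean per strain, a contrast of CAST/EiJ minus the mean of the 5 classical strain means, and eBayes with a trend, two-sided. Storey q-values were taken over all 15852 genes and limited to 0.01. The spread behind each p is that among mice within strains, so it concerns these inbred strains and not their subspecies. With strains as units a permutation p cannot go below 0.167. A second limma fit on 24 libraries compared CAST/EiJ with PWK/PhJ and with WSB/EiJ. The procedure was tested on simulated data in which unchanged genes had the classical mean in CAST/EiJ. Such data hold no ordinary difference of CAST/EiJ from other strains, so they cannot show how many calls any inbred strain would give. Lists, sums and figures were made in Python 3.11.15 with pandas 2.3.3, numpy 2.4.6 and matplotlib 3.10.9. Positions, overlaps and 31-base words came from the GENCODE M21 annotation of GRCm38, to which 15564 of the genes tested were matched singly.

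Members and lists were chosen with earlier results of these data known. Named genes are the 12 largest rises and falls among protein-coding genes standing apart (symbols starting with Gm or ending in Rik left out), the 3 largest of other biotypes each way, up to 4 genes standing apart of each list or else up to 2 at q under 0.01, Xist, Ddx3y, Nnt, Tyr and the most abundant gene of each cell type list, and the genes just inside and outside the size limit. Of the genes picked in this way, 4 are counted but not reported here. Srp54a, Srp54b, the mitochondrial genes other than mt-Nd6, the pseudogene and enolase copies, Rpl13, Cbx3, Gngt1, Pde6h, Onecut1, Hk2, Aldoc and all genes of the closing section were picked after seeing their values. The 28 lists are rod phototransduction, cones, photoreceptor ribbon synapse, bipolar, amacrine, horizontal and ganglion cells, Müller glia, microglia and complement, vascular cells, pigment epithelium and melanin, lens, blood, connective tissue and cornea, immediate early genes, circadian clock, dopamine and melatonin signalling, GABA and glycine receptors, glutamate receptors, MHC class I and antigen processing, interferon-induced genes, glutathione and redox, BMP and TGF-beta pathway, glycolysis, clustered protocadherins, Zfp genes, cytosolic ribosomal proteins and mitochondrially encoded genes. Alternatives were another pseudocount, other limits on low values, median-ratio scaling, quantile normalization, strain means as units, classical libraries pooled, another q limit, the Benjamini-Hochberg adjustment, protein-coding genes alone, X and Y kept, all 24 libraries, and each strain and library left out. Leaving out lens-rich libraries, libraries with high Xist or genes with shared words was chosen after seeing the data.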

Additional observations from a re-analysis of the deposited data

How the results depend on the processing

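No gene picked for naming that was called reversed its direction in any alternative that tested it. Of the 53 such genes standing apart, 38 stood apart in each alternative that tested them. Alternatives limited to protein-coding genes, to higher means or to genes with few shared words did not test all of them. The main limits are that CAST/EiJ is 1 inbred strain, that library codes run in order of strain, although the authors describe a randomized block layout for pooling before sequencing, so that any order of preparation and strain cannot be told apart, and that sex is not labelled. Reads of all strains were aligned to 1 assembly, and its effect was not tested. The limit of 0.5 cpm on the mean lies above the floor of 3 reads in every library, and rarer genes were not tested in the main fit. No paired analysis was possible because the labels give no replicate number shared by strains.

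With a pseudocount of 0.1, 318 genes stood apart higher and 549 lower, and the median log2 difference was -0.03976. Without a filter on low values 10076 of 27791 genes (36.3%) differed, 213 stood apart higher and 248 lower, and the median was -0.01152. With a mean of at least 5 cpm, 4767 genes differed, 66 stood apart higher and 127 lower, and the median was -0.02976. Under median-ratio scaling 4287 genes were called higher and 4142 lower, so the balance of the calls turned, and the median was 0.005163, with 0.002178 under quantile normalization. With strain means as units, 613 genes differed, 134 stood apart higher and 130 lower, in a fit that changes both the number of units and the spread used, and with the classical libraries pooled 4984 differed. Among protein-coding genes alone 106 stood apart higher, with a median of -0.04149. Leaving out NOD/ShiLtJ gave a median of -0.02976, and leaving out the lens-rich libraries, chosen after seeing the data, -0.02887. With only genes sharing under 10% of words, also chosen after seeing the data, 74 stood apart higher and 129 lower. Leaving out each library in turn gave 6710 to 8343 genes differing, 186 to 198 standing apart higher, 244 to 260 lower, and medians of -0.03798 to -0.02842. Except where a smaller set of genes or samples was used, the cause was not tested.

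Strain means ended the q call of 45 of the 93 genes picked for naming and tested, among them Grk1, Nefl, Glul, Vip, Spata1 and H2-D1. Each of the other alternatives ended the calls of fewer such genes, among them Jun, Ltbp2 and Hsf4.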

Other observations

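The X chromosome, left out of the counts above, held 531 genes that passed the same limit on the mean, of which 46.7% differed at q under 0.01 and 2.07% stood apart. The genes named here were chosen after their values were seen. Nyx, the nyctalopin gene of ON bipolar cells, was at 4.02, 3.57 and 4.48 cpm in the CAST/EiJ libraries and 8.08 to 11.6 cpm in the classical ones (difference -1.14). Firre, a long noncoding RNA that helps to shape nuclear organization, was at 9.83, 8.76 and 8.25 cpm against 30.7 to 38.5 cpm (-1.86), and Gpc3, a cell surface proteoglycan, at 0.370, 0.616 and 0.535 cpm against 1.53 to 4.21 cpm (-1.30). The processed pseudogene Gm8172 was raised, at 37.9, 37.3 and 42.7 cpm against 0 to 0.0832 cpm, and the long noncoding RNA Gm14505 was listed at 0 in the 3 CAST/EiJ libraries and at 1.14 to 2.61 cpm in the classical ones. The 3 CAST/EiJ libraries did not overlap the classical ones at these genes. Replicate 3 was the one with high Xist, and the part of sex in these differences was not tested.

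Some genes with large differences overlapped between the groups, and the classical strains differed among themselves at them. Of 116 genes at q under 0.01 with a log2 difference over 2 in size, 12 overlapped between the groups. The small nuclear RNA gene Gm22513 averaged 0.194 cpm in CAST/EiJ, 0.466 cpm in NOD/ShiLtJ and 0.193 cpm in A/J, but 410.4 cpm in 129S1/Svlmj, 369 cpm in C57BL/6J and 356 cpm in NZO/HlLtJ. The long noncoding RNA Gm33347 averaged 21.3 cpm in CAST/EiJ, 20.6 cpm in NOD/ShiLtJ and 19.7 cpm in PWK/PhJ, and at most 0.00969 cpm in the other strains. The processed pseudogene Gm13394 was raised in NOD/ShiLtJ (82.3 cpm), A/J (74.6 cpm) and NZO/HlLtJ (85.3 cpm) and was at or under 0.209 cpm in the others.

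Further stretches of neighbouring genes standing apart were seen besides the zinc finger stretch. At chr9:88580891-89177887, from Trim43a to 4930579C12Rik, 8 of 11 genes tested stood apart, each of them higher in CAST/EiJ. At chr17:6256860-6655900, from Tmem181a to Dynlt1f, 6 of 8 stood apart, 4 higher and 2 lower, among them 3 copies of the dynein light chain gene Dynlt1 that were higher. At chr11:3125904-3932159, around Sfi1, 5 of 21 stood apart, 4 higher and 1 lower.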
